A study of Drosophila melanogaster with 3 samples.

Results

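Chip (Chi), Ssdp and Beadex (Bx) are the LIM cofactor genes of Drosophila melanogaster, that is, genes for a LIM-domain-binding protein, for its binding partner and for a LIM-only protein. Their peaks were examined in anti-GFP chromatin immunoprecipitation with sequencing (ChIP-seq) of CG4328-GFP, a LIM-homeodomain transcription factor that carries green fluorescent protein (GFP) at its C-terminal end. The 3 genes were taken by name from 13945 protein-coding genes on 6 chromosome arms. A peak was counted for a gene when its summit, the position of highest signal, lay in the gene body or had a start of that gene as the nearest protein-coding start. By this rule the genes held 3 of 3688 peaks in the optimal list, and 25, 20, 29 and 20 of 30000 peaks in the relaxed lists of the 3 pooled libraries and of replicates 1, 2 and 3.

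The data came from 1 group of 3 biological replicates. Each was a collection of whole embryos of both sexes from a transgenic line with stable expression of the fusion protein, aged 8 to 24 h, and chromatin was sonicated to 200 to 800 bp. The optimal list was thresholded by the irreproducible discovery rate, whereas a relaxed list also holds background peaks. There was no second group and a control library was not analysed here, so all values describe occupancy in this line and no difference was tested. In whole embryos, occupancy in few cells and weaker occupancy in many cells cannot be told apart. The promoter that drives the transgene is not given in the sources used here, and the number of reads behind each peak is unknown.

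LIM-homeodomain proteins work in complexes held together by Chi, an LDB-type protein that dimerises and binds a LIM domain with each copy, as in the tetramer of Chi and Apterous in the wing. Ssdp, a single-stranded DNA-binding protein, binds Chi and is needed for the function of these complexes, and the Chi and Ssdp pair also takes part in Wnt-responsive enhancer complexes. Bx, also called dLMO, has LIM domains but no homeodomain and competes with LIM-homeodomain proteins for Chi. Chi also bridges the GATA factor Pannier and proneural bHLH proteins at their target enhancers.

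The sequences that carry the peaks of Ssdp and Bx were read from the RefSeq release 6 (dm6) genome, 5′ to 3′ on the strand of each gene. They are shown because they are the 3 optimal peaks of these genes, together with the next highest pooled peak of Bx. That pooled peak overlaps a listed peak in all 3 replicates, in replicate 3 only at rank 17679. The Ssdp peak of rank 1576 has its summit in a 5′ untranslated exon, so only the intronic side of the peak is given (chr3R:18198554-18198701, minus strand). The Ssdp peak of rank 2296 is given for 100 bp on each side of its summit (chr3R:18197475-18197675, minus strand). The Bx peak of rank 3247 is given for chrX:18546814-18547109 and the pooled Bx peak of rank 4784 for chrX:18524968-18525168, both on the plus strand. Capitals mark matches to the motifs searched.
Ssdp, rank 1576: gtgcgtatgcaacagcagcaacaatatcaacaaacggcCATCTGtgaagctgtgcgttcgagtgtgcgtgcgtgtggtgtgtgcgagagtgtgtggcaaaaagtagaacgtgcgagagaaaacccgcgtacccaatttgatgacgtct
Ssdp, rank 2296: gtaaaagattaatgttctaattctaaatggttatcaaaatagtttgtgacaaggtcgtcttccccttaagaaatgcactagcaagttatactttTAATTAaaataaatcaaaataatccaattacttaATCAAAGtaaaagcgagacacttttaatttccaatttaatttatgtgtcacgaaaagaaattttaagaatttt
Bx, rank 3247: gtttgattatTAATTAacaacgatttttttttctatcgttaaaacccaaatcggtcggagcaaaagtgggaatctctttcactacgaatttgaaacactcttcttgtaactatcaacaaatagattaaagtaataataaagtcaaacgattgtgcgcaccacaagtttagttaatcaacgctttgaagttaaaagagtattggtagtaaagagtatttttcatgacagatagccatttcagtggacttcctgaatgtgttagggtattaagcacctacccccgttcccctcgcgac
Bx, pooled rank 4784: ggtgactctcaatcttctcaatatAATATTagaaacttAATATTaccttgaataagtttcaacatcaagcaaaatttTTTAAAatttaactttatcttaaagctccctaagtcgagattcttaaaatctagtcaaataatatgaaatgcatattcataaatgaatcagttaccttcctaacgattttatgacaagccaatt

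Matches to 13 motifs were searched for. TAATTA and the variant TAATGA are homeodomain cores, GATAAG is bound by factors of the Pannier type, and CANNTG with its form CAGCTG is the E-box of bHLH factors. The form CACGTG is a further E-box. CTTTGAT is bound by TCF, the DNA-binding factor of Wnt signalling, and GAGAGAG by the product of Trl. TATCGATA, the element GGTCACACT and the element CAGCNCTG belong to core promoters, and AATATT as well as TTTAAA served as sequences made of A and T only. Both strands were searched, and both E-box forms are also matches of CANNTG. Within 100 bp of the summit the Ssdp peak of rank 2296 held 1 TAATTA, which was present in 18.0% of all 3688 optimal windows of this length. It also held 1 CTTTGAT, present in 3.28% of windows; its letters on the printed strand are ATCAAAG. The match to TAATTA stands at bases 95 to 100 of the printed run, close to the summit, and ATCAAAG at bases 129 to 135. No letters of the 13 motifs were found within 100 bp of the other Ssdp summit or of the Bx summit, not even CANNTG, which was in 59.9% of optimal windows.

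Farther from the summits, but within the deposited peaks, the Bx peak held 1 TAATTA (28.0% of all optimal peaks) and the Ssdp peak of rank 1576 held 1 CANNTG (84.4%) and 1 GAGAGAG (13.0%). The Ssdp peak of rank 2296 held 1 TAATGA (21.8%) and 2 TTTAAA (43.4%) in addition to its TAATTA and CTTTGAT. The windows differed in base composition. GC content was 42.8% at the Ssdp summit of rank 1576, 24.9% at that of rank 2296 and 37.8% at the Bx summit, beside a median of 36.3% over all optimal windows. For the Ssdp window of rank 2296, the one with the TAATTA, 3.85% of optimal windows were lower in GC; the part of base composition in these matches was not tested.

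Of the 3 genes, Ssdp and Bx had an optimal peak and Chi had none, whereas 20.1% of all protein-coding genes had at least 1. Ssdp had 2 optimal peaks, a number shared by 475 genes, and Bx had 1, as 2021 genes did. Gene length bears on such counts, because a peak anywhere in the body is assigned to the gene. Among genes of 0.5 to 2 times the length of each, 29.3% of 3201 had an optimal peak for Ssdp (7102 bp), 50.2% of 634 for Bx (57382 bp) and 16.8% of 6767 for Chi (2406 bp). The pooled list held peaks of Ssdp and Bx but none of Chi, against 63.0% of all genes with a pooled peak. At least 1 peak was listed for all 3 genes in replicate 1 (64.6% of all genes), for Ssdp and Bx in replicate 2 (62.7%) and for Chi and Bx in replicate 3 (63.2%). Bx alone was in the lists of all 3 replicates, as were 40.6% of all genes and 91.5% of genes of its length. The map of summits by list shows these patterns for each gene.

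**Figure D1:**
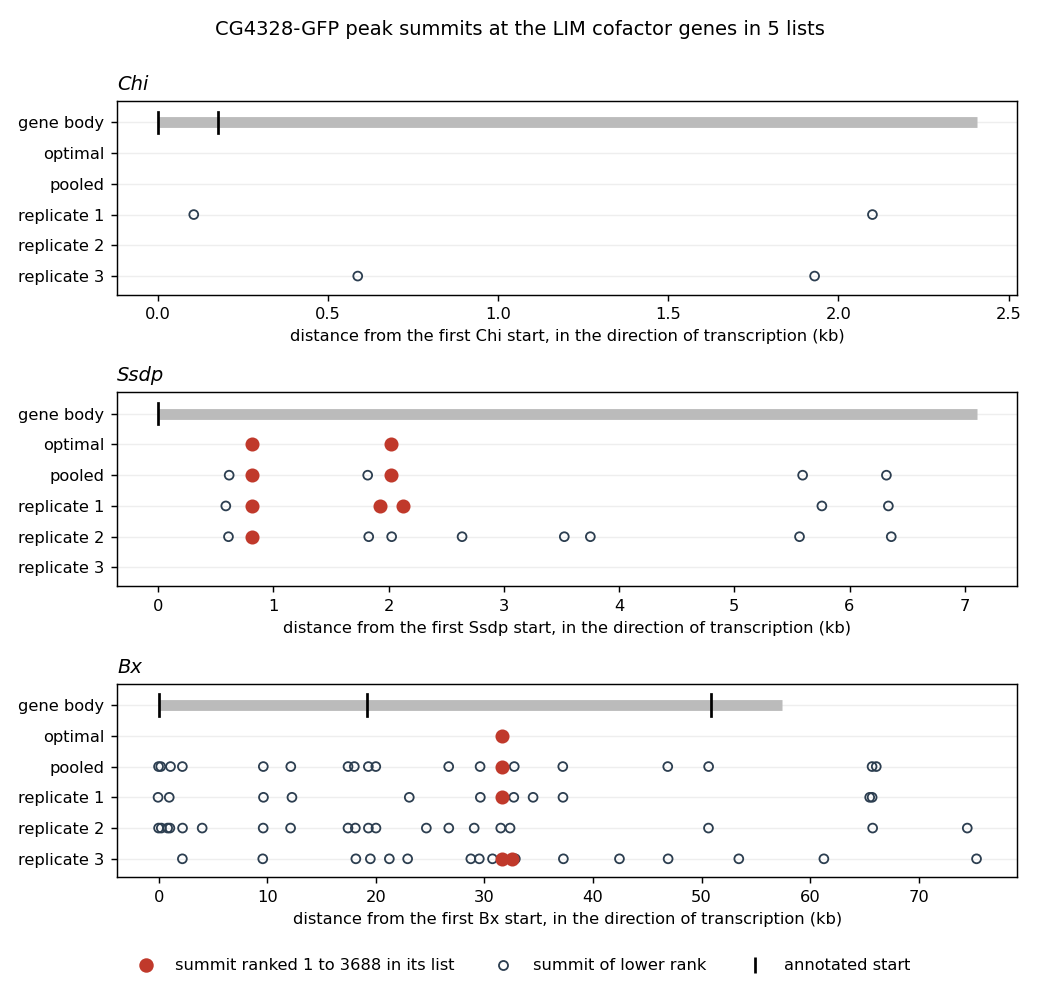
Positions of peak summits assigned to Chi, Ssdp and Bx in the optimal, pooled and 3 replicate lists, as distance in kb from the first start of each gene in the direction of transcription. Grey bars are gene bodies, black ticks annotated starts, filled red points summits ranked 1 to 3688 in their list and open points summits of lower rank; Chi has open points only, Ssdp none in replicate 3, and Bx filled points between the second start and the last in the optimal, pooled, replicate 1 and replicate 3 lists.

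None of the 3 optimal peaks of these genes had its summit next to a start. The summits were 816, 2020 and 12346 bp from the nearest start, all beyond the 500 bp used to call a summit near a start; 46.9% of all optimal summits lay beyond it. Counting only summits within 500 bp of a start therefore left 0 of the 3 genes with an optimal peak, against 17.4% of all genes. None of the 3 peaks overlapped a peak among the 3688 highest of every replicate, although 56.2% of all optimal peaks did. The Ssdp peak of rank 1576 was among the highest of replicates 1 and 2, that of rank 2296 among those of replicate 1 only, and the Bx peak among those of replicates 1 and 3. Over optimal peaks supported by both other replicates, 0 of the 3 genes kept a peak without replicate 1, against 13.3% of all genes. Bx alone kept its peak without replicate 2, against 14.0% of all genes, and Ssdp alone kept 1 of its 2 peaks without replicate 3, against 15.4%.

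**Figure D2:**
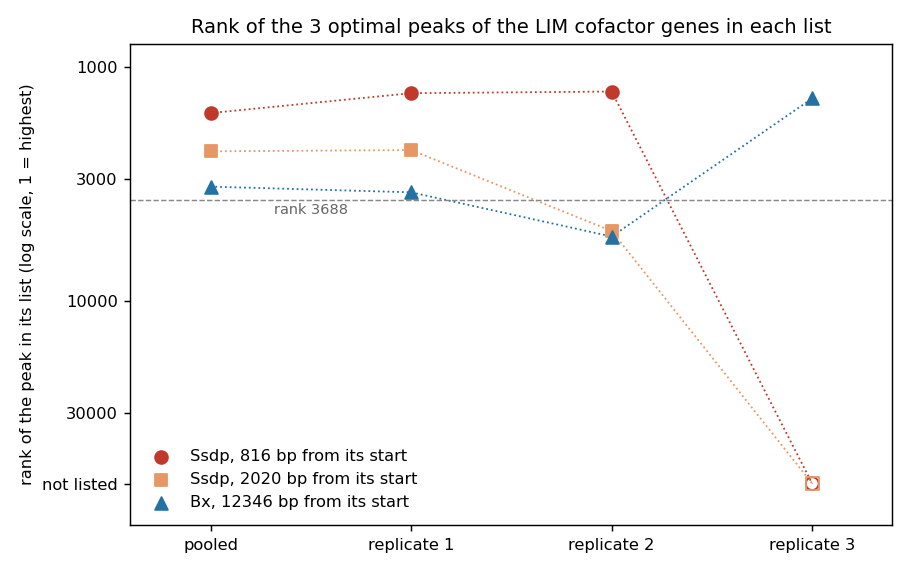
Rank of each of the 3 optimal peaks in the pooled list and in the list of each replicate (log scale, 1 is highest, 30000 peaks per list); the dashed line marks rank 3688. Both Ssdp peaks are present in replicates 1 and 2 and not listed in replicate 3, where the Bx peak has its best rank, 1365.

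Chi (FBgn0013764; dm6 2R, 24031538 to 24033943, minus strand), the LDB-type core of the complexes, is a short gene with 2 annotated starts. It had 0 peaks in the optimal, pooled and replicate 2 lists, 2 in replicate 1 and 2 in replicate 3. All 4 were of low rank. The highest, in replicate 1, ranked 11784 with a signal value of 23.6 and a −log10 q of 0.92; its summit (24033838) lay 70 bp upstream of the second start, in the 5′ UTR of the transcript from the first start. The highest in replicate 3 ranked 17837 with a signal value of 15.9 and lay in coding sequence, 412 bp from a start. For scale, the lowest signal value among the 3688 highest peaks was 47.4 in replicate 1 and 29.5 in replicate 3.

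The 4 Chi peaks fell into 3 loci, and 1 of them, in coding sequence at 24031628 to 24032210, was shared by replicates 1 and 3, with ranks of 21379 and 28716. Loci were merged for the cofactor genes only, so no share over all genes stands beside this count. Chi shares its promoter region with MAN1, an inner nuclear membrane protein gene, whose start lies 31 bp from that of Chi in the opposite direction. MAN1 and CG30172, the neighbour 110 bp away on the other side, had neither optimal nor pooled peaks. The region around Chi was not poor in peaks: 8 optimal summits lay within 50 kb, above the upper quartile of 6 over all genes, where the median was 4. The closest was 2891 bp outside the gene at a peak of rank 1261, near the start of HSPC300, which encodes a subunit of the SCAR actin-regulatory complex.

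Ssdp (FBgn0011481; 3R, 18192494 to 18199595, minus strand), the partner of Chi, held the highest peak of these genes. That peak (18198554 to 18199003, summit 18198779) had a signal value of 223.3, against a median of 202.6 in the optimal list, and a −log10 q of 3.02; the signal value and −log10 q are those the authors deposited, and were used only within a list. It ranked 1576 in the pooled list, 1297 in replicate 1 and 1276 in replicate 2. Their signal values were 87.6 and 109.8. Summits in these replicate lists lay 0 and 2 bp from the optimal summit. The median shift was 20 bp over all optimal peaks, with replicate 3 and overlapping peaks of any rank included. The summit was 816 bp downstream of the only annotated start, in the 5′ UTR exon (18198702 to 18199595) of 3 of the 4 transcripts and in an intron of the other one.

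In replicate 3 Ssdp had no peak at all among 30000. The closest replicate 3 summit lay 709 bp outside the gene at rank 21297, nearest to the start of CG14313. Of the 1132 optimal peaks at least as high as this Ssdp peak in both replicates 1 and 2, 81 (7.16%) were also missing from the whole replicate 3 list and 1036 were among its 3688 highest. Over all optimal peaks, 13.6% were missing from it. The median −log10 q was lower in the replicate 3 list (0.14) than in those of replicates 1 (0.61) and 2 (0.87); the part of library quality in the missing Ssdp peaks was not tested.

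The other Ssdp optimal peak (18197350 to 18197799, summit 18197575) lay 1204 bp farther into the gene, in an intron of all 4 transcripts. It had a signal value of 177.8 and ranked 2296, and 754 bp separated it from the first. Replicate 1 placed it at rank 2267 with a summit shift of -108 bp along the chromosome, and listed another peak of rank 2651 over the same interval, so in that library the optimal summit stood between a pair of summits. Replicate 2 placed it at rank 5021, below the 3688 highest, with a shift of -7 bp. The Ssdp peak of rank 2296 thus ranked farther apart in replicates 1 and 2 than the higher Ssdp peak. It held TAATTA and CTTTGAT within 100 bp of its summit, where the higher peak had none of the 13 motifs. A relation of motifs to ranks was not tested.

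The remaining Ssdp peaks were low. All peaks of the 4 relaxed lists in the gene merged into 6 loci, of which 4 were shared by replicates 1 and 2 and 2 were seen in replicate 2 alone. Those shared but not in the optimal list lay in the 3′ UTR, with pooled ranks of 9658 and 29473. As for Chi, these counts of loci have no share over all genes beside them. At the start itself, which Ssdp shares as a divergent promoter with CG7985 (starts 262 bp apart), the pooled list held 1 peak, nearer to CG7985, at rank 22465. Replicate 2 listed a summit 146 bp outside Ssdp at rank 11334, and replicate 1 a summit 652 bp outside it at rank 27619. Both were also nearest to CG7985. The wider region was rich in peaks, with 11 optimal summits within 50 kb, against the upper quartile of 6 over all genes. The closest outside the gene lay 3524 bp away at rank 807, 102 bp upstream of MED17, a Mediator subunit gene.

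Bx (FBgn0265598; X, 18515428 to 18572809, plus strand), the LIM-only competitor, has 5 transcripts from 3 starts, at 18515428, 18534663 and 18566306. Its optimal peak (18546784 to 18547233, summit 18547009) had a signal value of 142.2 and a −log10 q of 3.11. At rank 3247 it stood near the end of the optimal list, whose lowest signal value was 130.9. The summit lay 12346 bp downstream of the second start, in an intron of all 4 transcripts that span it; 4.39% of optimal summits (162) lay as far or farther from a start. These introns are 45656 bp (18521040 to 18566695) and 31271 bp long (18535425 to 18566695).

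Replicates ranked this Bx peak differently from the Ssdp peaks. It ranked 3433 in replicate 1, 5301 in replicate 2 and 1365 in replicate 3, with signal values of 49.4, 50 and 57.4, each on the scale of its own list. The summit shifts were 1, -72 and 19 bp. Replicate 3, which lacked Ssdp, thus gave Bx its best rank, and replicate 2 placed the Bx peak below its 3688 highest. The higher Ssdp peak had nearly equal ranks in replicates 1 and 2 (1297 and 1276). The other Ssdp peak ranked 2267 in replicate 1 and 5021 in replicate 2, where it too was below the 3688 highest. Of the 50 optimal peaks that stood at or below the Bx peak in both replicates 1 and 2, 15 (30%) were at least as high as it in replicate 3. The optimal list holds the highest pooled peaks of these same libraries, so this share depends on that choice and is no independent background. The comparison of ranks by replicate shows the crossing of the Bx and Ssdp peaks.

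Peaks of the relaxed lists were spread along Bx from the first start to the sequence beyond its end. They merged into 29 loci, of which 15 were found in 1 replicate, 11 in 2 and 3 in all 3, and 17 were in the pooled list. Here too no share over all genes is available, so how usual these counts are is unknown. Overlapping peaks were joined in turn, so the peaks of a locus need not all overlap each other. Besides the optimal peak, the loci in all 3 replicates lay at 18524818 to 18525296, between the first and second starts, and at 18547566 to 18548478, adjacent to the optimal peak. The first of these ranked 4784 in the pooled list and 6002, 4854 and 17679 in replicates 1, 2 and 3. In replicate 3 its peak had a −log10 q of 0.13, against a median of 0.14 in that list. This locus lies 21941 bp from the optimal summit, and the start of CG6481, a gene inside Bx, is nearer to it than any Bx start. The other ranked 10584 in the pooled list and 10502, 19837 and 3364 in replicates 1, 2 and 3. Replicate 3 thus had peaks among its 3688 highest at both of the neighbouring intronic loci, replicate 1 at the optimal one only, and replicate 2 at neither.

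**Figure D3:**
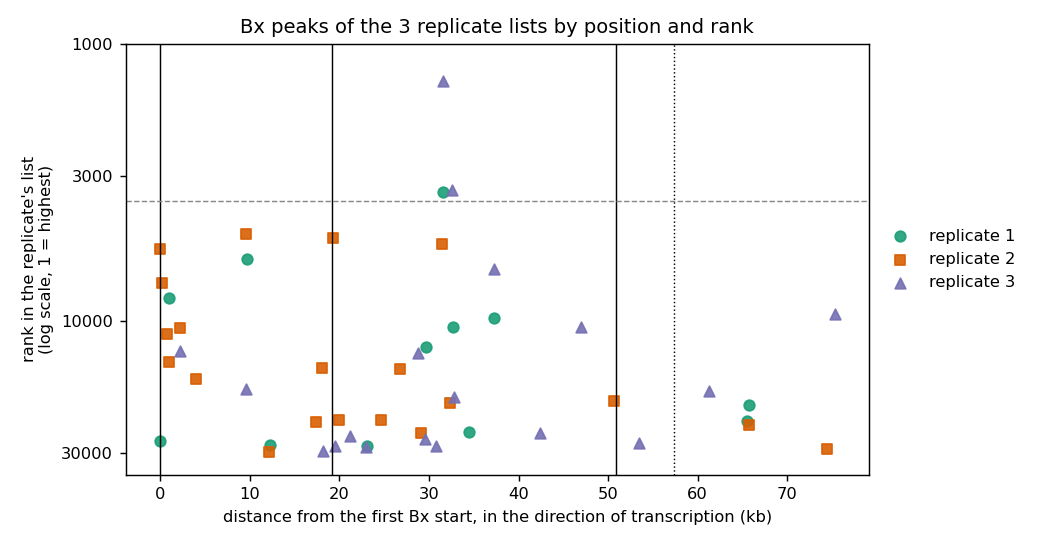
Peaks assigned to Bx in the 3 replicate lists, by distance from the first start in kb and by rank in the replicate's own list (log scale, 1 is highest). Solid lines mark the 3 starts, the dotted line the end of the gene and the dashed line rank 3688; 1 replicate 1 peak and 2 replicate 3 peaks stand above the dashed line, all in the large intron downstream of the second start.

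The starts of Bx had peaks of lower rank. HisRS, the histidyl-tRNA synthetase gene, has the same annotated start as the first Bx start, so a peak there counts for both genes; its pooled rank was 8613, and it ranked 5497 in replicate 2 and 27070 in replicate 1 and was not listed in replicate 3. The second start, used by 3 transcripts, had a peak 82 bp downstream that ranked 18165 in the pooled list, 5016 in replicate 2 and 28272 in replicate 3. The peak at the third start ranked 24816 in the pooled list and was found in replicate 2 only. All of these start-near ranks were best in replicate 2, in contrast to the intronic loci near the optimal peak.

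No other optimal summit lay within 50 kb of Bx, and this 1 summit compares with a lower quartile of 2 over all genes. The next optimal summit was 72305 bp outside the gene at a peak of rank 1165, near Rip11, the gene for a Rab11-interacting protein. The genes next to or inside Bx, namely CG6470, CG15040, HisRS, CG6481, CG15042 and CG15047, had 0 optimal peaks. CG15040, 33800 bp beyond the end of Bx, had 7 pooled peaks with a best rank of 7172.

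Best ranks set the 3 genes in order within each list. In the pooled list Ssdp ranked 1576, Bx 3247 and Chi was not listed, beside a median best rank of 7337 over the 8785 genes with a pooled peak. The same order of Ssdp before Bx held in replicate 1 (1297 and 3433) and replicate 2 (1276 and 4854), with medians over listed genes of 7753 and 7332. The best Bx rank in replicate 2 belongs to the peak whose nearest start is that of CG6481. The optimal Bx peak ranked 5301 in that list. In replicate 3 Bx ranked 1365 and Chi 17837, against a median of 7047, and Ssdp was not listed. The order of Ssdp and Bx is thus not common to the 3 replicates. Among the 5656 genes with peaks in all 3 replicates, those with best ranks most like Bx were cmet (3253, 4878 and 1454 in replicates 1, 2 and 3), CG6833 (3402, 5088 and 1232) and Tsp42Er (3313, 5466 and 1327). Their distances from Bx in log10 rank were 0.0361, 0.0492 and 0.0552 over the 3 replicates. cmet encodes a mitotic kinesin and Tsp42Er a tetraspanin.

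Beside the cofactor genes, 33 genes in 4 lists were examined, all of which were matched. One list holds 12 genes for other LIM-domain proteins, which were not listed as partners of the cofactors. The other lists hold genes for proteins that work with these cofactors. Of all protein-coding genes 20.1% had an optimal peak, and for the genes of the 4 lists no share among genes of like length is given. Of the 7 genes for β-catenin and Wnt enhancer complex partners, 3 had an optimal peak. The best peak of osa, which encodes a subunit of the Brahma chromatin remodelling complex, ranked 37 (3R, 17700375 to 17700777), and 28, 34 and 62 in replicates 1, 2 and 3. That of gro, the Groucho co-repressor gene, ranked 421 and lay 102 bp upstream of a start, and that of lgs, the gene for the adaptor between Armadillo and Pygopus, ranked 667. For pan, the TCF gene, pygo, arm and run no optimal peak was found. Of the 7 GATA and bHLH partner genes, ush alone had optimal peaks; ush encodes a Friend-of-GATA cofactor of Pannier. It had 6, the best at rank 9 (2L, 480914 to 481285), and 10, 8 and 25 in the replicates.

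Of the 12 genes for other LIM-domain proteins, 6 had an optimal peak. Pax, the paxillin gene of cell-matrix adhesions, had 5, the best at rank 43, stck (PINCH, of the same adhesions) had 1 at rank 1184 and Lmpt, the Limpet gene, had 1 at rank 1503. None of the 7 LIM-homeodomain genes, CG4328 itself among them, had an optimal peak, and their best pooled ranks ran between 4475 (tup) and 22045 (Lmx1a), all lower than those of Ssdp and Bx. Over the 4 lists, 10 of 33 genes had an optimal peak, beside 2 of the 3 cofactor genes and 20.1% of all genes. Of these 10 genes, 6 were other LIM-domain genes, which are not partners of the cofactors. The lists of partners had 0 of 7 (LIM-homeodomain), 3 of 7 (Wnt) and 1 of 7 (GATA and bHLH). None of these shares was tested, and the part of gene length in the counts was not tested either. Median best pooled ranks of the genes listed were 7819 for LIM-homeodomain genes, 5235 for Wnt partners, 7949 for GATA and bHLH partners and 3652 for other LIM-domain genes, against 7337 over all genes listed. The plot of best pooled ranks by list places Ssdp and Bx above all LIM-homeodomain genes; osa, gro, lgs, ush, Pax, stck and Lmpt stand above both, and LIMK1 (2015) and pk (2300) stand between Ssdp and Bx.

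**Figure D4:**
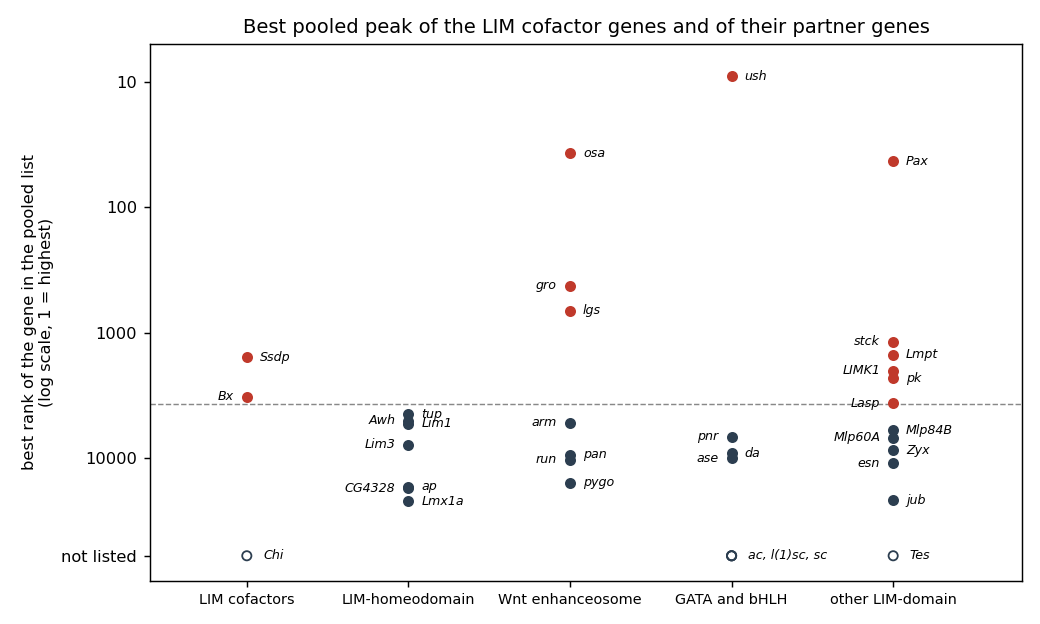
Best rank in the pooled list (log scale, 1 is highest) of the 3 LIM cofactor genes and of 33 genes in 4 lists. The list of other LIM-domain genes does not hold partners of the cofactors. Red points are genes with an optimal peak, dark points genes with lower ranks and open points genes with no pooled peak. The dashed line is rank 3688; Ssdp (1576) and Bx (3247) lie above it and all 7 LIM-homeodomain genes below it.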

How the data were processed

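Peak lists of anti-GFP ChIP-seq in 3 biological replicates of CG4328-GFP embryos were used in dm6, namely the optimal, pooled and 3 replicate lists; the dm3 lists were not used here. Per text notes that the authors deposited beside each library, a replicate list came from 1 alignment and a control, the pooled list from all 3 alignments, and the optimal list from these. The deposited signal value and −log10 q of each peak were assigned by the authors on a scale that is not stated, and serve here only to describe and rank peaks within a list. All 3688 optimal peaks were the 3688 of highest signal value in the pooled list. An aligner, caller or threshold is not given in the sources used here. Age was read in the source name, since the separate age label cannot be right for embryos.

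Summits were assigned with BDGP 6.54 gene models (Ensembl release 115), so that a summit can count for a gene with the nearest start and for a gene whose body holds it, ties included. Coordinates are 1-based. Support was an overlap of at least 1 bp with the 3688 highest peaks of a replicate. Assignments and overlaps were tested on simulated data. Scripts used Python 3.11.15, pandas 2.3.3, NumPy 2.4.6 and Matplotlib 3.10.9.

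The genes, lists, motifs and rules were chosen with earlier results of these data known. Named genes were the cofactors, their neighbours, up to 3 genes of each partner list with the highest optimal peaks, and the 3 genes with best ranks (log10) closest to a cofactor gene listed in all replicates. HSPC300, MED17, Rip11, LIMK1, pk and the partner genes without optimal peaks were named after their values were seen. Alternatives were other assignments, lists, overlaps, windows and leaving out each replicate.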

Additional observations from a re-analysis of the deposited data

How the results depend on the processing

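Within 500 bp of a start, 0 of the 3 genes (0 peaks, against 17.4% of all genes) had an optimal peak. So did 4 of the 33 genes of the 4 gene lists. Best pooled ranks were then 22465 for Ssdp and 8613 for Bx. The 1844 optimal peaks of highest signal value left 1 gene and 1 peak, at Ssdp, against 11.9% of all genes. Leaving out each replicate in turn gave 0 to 1 of the 3 genes, 0 to 1 peaks and 8 to 9 of the 33 other genes, against 13.3% to 15.4% of all genes. It also gave 0 to 1 cofactor peaks supported by the remaining replicates, for which no share over all optimal peaks is given. Support by all 3 replicates rose to 1 peak, at Bx, with the 10000 highest (81.4% of all optimal peaks) or the whole replicate lists (85.6%). Pairs of a motif and an optimal peak with at least 1 match were 7, against 2, with 200 bp on each side or the whole peak. Nearest start alone (18.8% of all genes), gene bodies with 2000 bp added (30.8%), all gene biotypes (19.1%) and merged peaks (20.1%) left 2 genes and 3 peaks, and Chi had no pooled peak under any of the 4 other assignments. No paired analysis was possible because there is 1 group. Depth is unknown, so the lack of a Chi peak in the optimal, pooled and replicate 2 lists, or of an Ssdp peak in replicate 3, says only that none was listed.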
